A study of Mus musculus with 6 samples.

Results

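The gene encoding thioredoxin-interacting protein (Txnip), its relative and fellow Mondo target Arrdc4, the related gene Arrdc3 and the genes of the transcription factors that control Txnip and Arrdc4 (Mlx, Mlxip and Mlxipl) were followed in primary mouse bone-marrow-derived macrophages (BMDMs). The 6 genes were picked by symbol from the 54532 genes of the deposited expression table, and the choice was made from values measured in these same libraries. Fold changes of the 6 genes are therefore given as a description with no test. All cells came from the bone marrow of wild-type C57BL/6 mice and were differentiated in medium conditioned by L929 cells. One group was left untreated, one was stimulated for 2 h with 100 ng/ml of the bacterial cell-wall component LPS (LPS), and one had 6 h of metformin at 5 mM before an identical stimulation (Met+LPS). Each of the 3 groups holds 2 libraries, and no library received metformin alone. The age of the mice is not given in the sources used here, and the cells were seeded in duplicate, so the spread between the 2 libraries of a group may be technical.

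Txnip, Arrdc3 and Arrdc4 encode alpha-arrestins, adaptor proteins that bring membrane proteins to ubiquitin ligases and so to endocytosis. Txnip binds thioredoxin and lowers glucose uptake through the transporters encoded by Slc2a1 and Slc2a4, and Arrdc4 also lowers glucose uptake. Mlxip encodes MondoA and Mlxipl encodes ChREBP, transcription factors that pair with Mlx and respond to phosphorylated glucose. Txnip and Arrdc4 are the textbook targets of MondoA and Mlx, whose binding element is a pair of E-box-like sequences with 5 bases between them.

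The bases upstream of Txnip and Arrdc4 are shown for their E-box-like letters, which form a pair only at Txnip, and for their CCAAT boxes. The sequences are those of RefSeq on GRCm38.p6, 250 bases up to the base before the annotated start, in gene orientation. Capitals mark the paired E-box-like element of Txnip and the E-box of Arrdc4.
Txnip, chr3:96557707-96557956, plus strand: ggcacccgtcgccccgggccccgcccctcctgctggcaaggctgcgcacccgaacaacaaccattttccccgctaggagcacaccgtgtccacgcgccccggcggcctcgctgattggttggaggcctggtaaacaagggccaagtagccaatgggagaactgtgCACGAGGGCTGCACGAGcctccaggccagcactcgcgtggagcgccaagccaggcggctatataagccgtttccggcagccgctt
Arrdc4, chr7:68749239-68749488, minus strand: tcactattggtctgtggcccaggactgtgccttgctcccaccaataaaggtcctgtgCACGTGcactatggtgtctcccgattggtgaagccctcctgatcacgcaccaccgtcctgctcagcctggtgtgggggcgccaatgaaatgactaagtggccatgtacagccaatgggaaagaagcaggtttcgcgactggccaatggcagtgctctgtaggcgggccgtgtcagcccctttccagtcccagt

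Txnip held a pair of CACGNG copies with 5 bases between them at positions -85 to -69 from its start. Of 32851 promoter windows of 300 bases (250 before and 50 after a start), 16 held such a pair on either strand, or 0.0487%. The Arrdc4 window held no such pair and a single E-box, CACGTG, at positions -193 to -188. An E-box lay in 7.15% of all windows. The letters of an E-box also fit CACGNG on both strands, so every E-box is counted as an E-box-like element as well. Both promoters held CCAAT, the sequence bound by the factor NF-Y, on either strand. Txnip had 2 copies and Arrdc4 had 6, and 0.0791% of windows held 6 or more. Among the other members, an E-box lay in the Mlx window and in the first of the 2 Mlxipl windows. A consensus carbohydrate response element was searched as CAYGNG, 5 free bases and CNCRTG (Y is C or T, R is A or G, N is any base). This pattern was in 0.119% of windows and in no window of the 6 genes. The second copy of the Txnip pair, CACGAG, does not match CNCRTG, so the Txnip pair is not counted under this pattern. These matches describe letters in a short window and were not tied to binding.

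**Figure D1:**
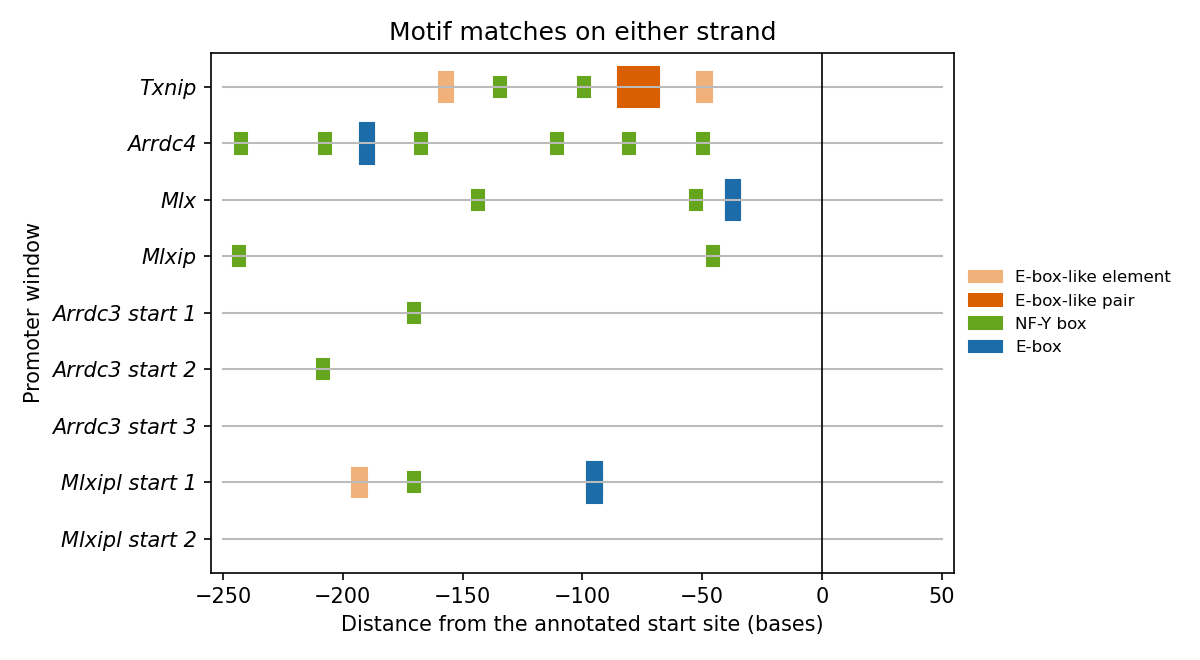
Motif matches in the promoter windows of the 6 genes, by distance in bases from the annotated start site, with every annotated start of Arrdc3 and Mlxipl on its own line. Only Txnip among the 6 genes holds the E-box-like pair, at -85 to -69, and Arrdc4 holds 6 NF-Y boxes (CCAAT) and an E-box.

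Txnip, the alpha-arrestin that binds thioredoxin, was lower after LPS and lower again when metformin came first. Its level was 265.2 and 259.1 TPM (transcripts per 1000000, a unit that corrects for gene length) in the untreated libraries, 57.42 and 59.5 TPM with LPS, and 7.498 and 9.551 TPM in Met+LPS. The groups did not overlap, and each step down was far larger than the gap between the 2 libraries of a group. The group means were 262.1 ± 4.33, 58.46 ± 1.47 and 8.524 ± 1.45 TPM (SD, n = 2). The TPM was 4.48-fold lower with LPS than in untreated cells, 6.86-fold lower in Met+LPS than with LPS alone, and 30.7-fold lower in Met+LPS than in untreated cells. Behind these levels stood 6297 and 5796 reads in untreated cells, 1365 and 1356 with LPS, and 177 and 264 in Met+LPS, as recovered from the TPM values. The gene (ENSMUSG00000038393) lies on chromosome 3, from 96557957 to 96561883 on the plus strand of GRCm38.

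Arrdc4, the partner target of MondoA and Mlx, went the other way at both steps. Its level was 6.284 and 6.083 TPM in untreated cells, 8.944 and 8.855 TPM with LPS, and 21.35 and 20.31 TPM in Met+LPS. Again no 2 groups overlapped, and both Met+LPS libraries were the highest. The group means were 6.183 ± 0.143, 8.899 ± 0.0635 and 20.83 ± 0.739 TPM (SD, n = 2). The TPM was 1.44-fold higher with LPS than in untreated cells, 2.34-fold higher in Met+LPS than with LPS alone, and 3.37-fold higher in Met+LPS than in untreated cells. The reads numbered 193 and 176, 275 and 261, and 652 and 726 in the 3 groups in the same order. The gene (ENSMUSG00000042659) lies on chromosome 7, from 68736995 to 68749241 on the minus strand.

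Arrdc3, an alpha-arrestin known for the endocytosis of the beta-2 adrenergic receptor, was far lower in both LPS-stimulated groups than in untreated cells. Its level was 14.52 and 13.95 TPM in untreated cells, 0.7757 and 0.8091 TPM with LPS, and 1.098 and 1.316 TPM in Met+LPS. The untreated libraries stood far above the other 4, and the Met+LPS libraries lay just above those with LPS alone. The TPM was 17.96-fold lower with LPS than in untreated cells and 1.52-fold higher in Met+LPS than with LPS alone. With LPS the level rested on 37 reads in each library, and in Met+LPS on 52 and 73. The gene (ENSMUSG00000074794) lies on chromosome 13, from 80883384 to 80896042 on the plus strand.

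The genes of MondoA and Mlx stayed within a narrow range. Mlx, the shared partner of both Mondo proteins, was at 59.41 and 54.75 TPM in untreated cells, 44.88 and 42.57 TPM with LPS, and 49.76 and 47.14 TPM in Met+LPS. Mlxip, the MondoA gene, was at 40.06 and 41.09 TPM in untreated cells, 44.0 and 46.46 TPM with LPS, and 40.28 and 40.97 TPM in Met+LPS. The Mlxip values of untreated and Met+LPS cells overlapped. Mlxipl, the ChREBP gene, had 1 read in both untreated libraries and in 1 library with LPS, and 0 reads in the other 3. In those 3, a count of 0 allows a level of 3 reads, which was 0.0612 to 0.0717 TPM. No difference in its level was detectable at this depth. The ratio of Mlx to Mlxip TPM within a library was 1.408 ± 0.107 in untreated cells, 0.9681 ± 0.0734 with LPS and 1.193 ± 0.0601 in Met+LPS (SD, n = 2). Mlx (ENSMUSG00000017801) lies on chromosome 11 from 101087277 to 101092207, Mlxip (ENSMUSG00000038342) on chromosome 5 from 123394798 to 123457932 and Mlxipl (ENSMUSG00000005373) on chromosome 5 from 135089890 to 135138382, all on the plus strand.

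**Figure D2:**
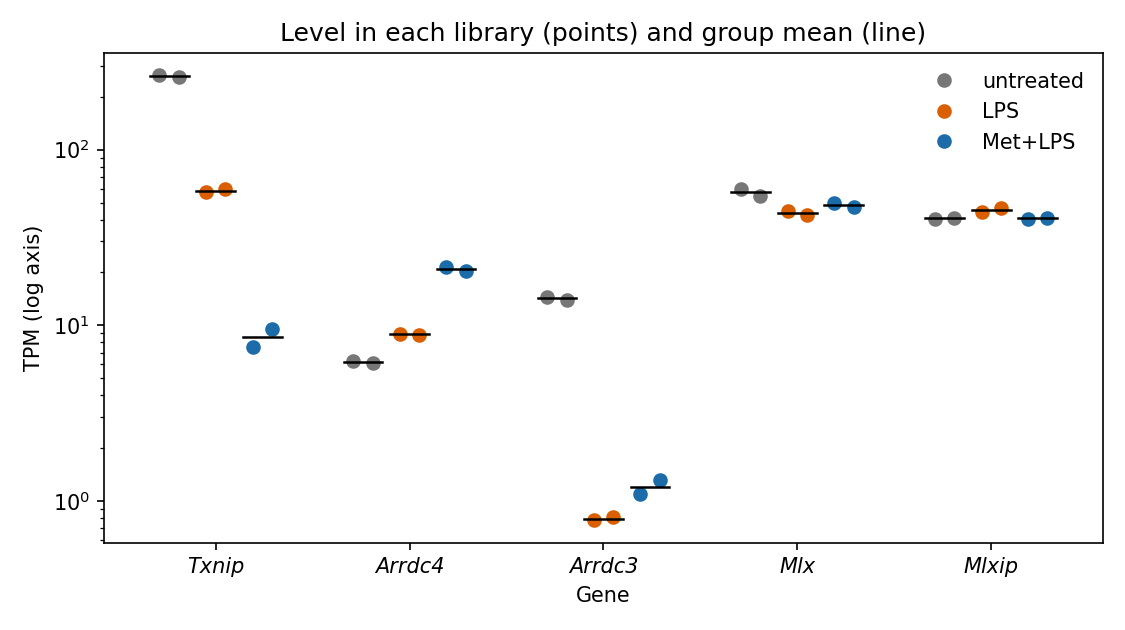
TPM on a log axis of the 5 tested members in the 6 libraries, with a line at each group mean. Txnip steps down from 262.1 to 58.46 and 8.524 TPM while Arrdc4 steps up from 6.183 to 8.899 and 20.83 TPM, and Mlx and Mlxip stay between 40.06 and 59.41 TPM. Mlxipl is left out because it had at most 1 read in a library.

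TPM corrects for gene length, so the levels of different genes can be set side by side, with a limit. Genes on the opposite strand share 606 of the 3123 exon bases of Txnip, 385 of 1999 in Mlx and 267 of 8326 in Mlxip. Whether reads there were counted is not stated. In untreated cells the order of mean TPM was Txnip, Mlx, Mlxip, Arrdc3, Arrdc4 and Mlxipl, and no neighbours in that order overlapped. With LPS it was Txnip, Mlxip, Mlx, Arrdc4, Arrdc3 and Mlxipl, and Mlxip and Mlx overlapped. In Met+LPS it was Mlx, Mlxip, Arrdc4, Txnip, Arrdc3 and Mlxipl, again with no overlap. Txnip thus passed from place 1 to place 4. The 2 Mondo targets changed places as well. There were 42.2 and 42.59 Txnip TPM for each Arrdc4 TPM in the untreated libraries, 6.42 and 6.719 with LPS, and 0.3511 and 0.4703 in Met+LPS. In Met+LPS, Arrdc4 stood 2.487 ± 0.51 times as high as Txnip (SD, n = 2). A ratio within a library does not depend on how libraries are scaled against each other.

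Shares within the whole alpha-arrestin family (Txnip and Arrdc1 to Arrdc5) shifted while its summed TPM fell, so a share could rise without a rise in level. The TPM summed over the family was 366.1 ± 3.05 in untreated cells, 109.0 ± 5.25 with LPS and 68.73 ± 4.61 in Met+LPS (SD, n = 2). Txnip made up 71.6% ± 0.584 of this sum in untreated cells, 53.65% ± 1.23 with LPS and 12.36% ± 1.28 in Met+LPS. The share of Arrdc4 was 1.689% ± 0.0249, 8.174% ± 0.452 and 30.41% ± 3.12 in the same order. Arrdc1, known for its part in vesicle budding at the plasma membrane, made up 21.75% ± 0.837, 37.17% ± 1.68 and 54.95% ± 1.78. Its own level was 79.61 TPM on average in untreated cells, 40.56 TPM with LPS and 37.81 TPM in Met+LPS. Arrdc5 was listed at 0 in every library.

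**Figure D3:**
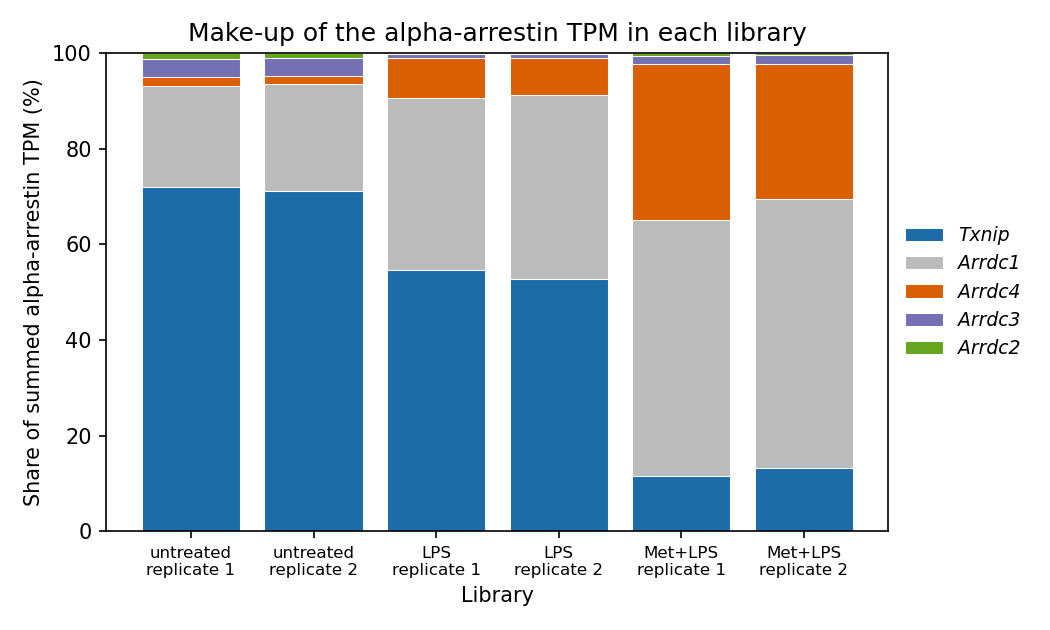
Share in percent of the summed alpha-arrestin TPM taken by each family member in each of the 6 libraries. Txnip takes 71.6% on average in untreated cells and 12.36% in Met+LPS, and Arrdc4 takes 1.689% and 30.41%.

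These values were set against all genes with a fit of log2(TPM + 1) in limma over 12755 genes that reached 1 TPM in 2 or more libraries. All members but Mlxipl passed this filter. A gene was called with a Benjamini-Hochberg adjusted p-value under 0.01 and a log2 fold change, up or down, of 2 or more against untreated cells or of 0.7 or more for Met+LPS against LPS. Fold changes from here on are on the log2(TPM + 1) scale, which understates the change of low genes. Comparisons that involve the same group share its libraries and are not independent. The members were chosen from these values, so their place against the cut-offs is a description and not a test. Beside the members, the shares of all genes called are given for scale only.

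In LPS against untreated cells, 2 of the 5 tested members, Txnip and Arrdc3, were past both cut-offs, both lower. Of all genes tested, 6.08% were called, with 3.72% higher and 2.37% lower. The log2 fold change was -2.15 for Txnip, -3.09 for Arrdc3, 0.46 for Arrdc4, -0.38 for Mlx and 0.15 for Mlxip, with standard errors between 0.04 and 0.10. The median over all genes tested was -0.48 in this comparison. When the libraries were rescaled by the median ratio between them, the log2 fold change was -1.62 for Txnip, which is no longer past the cut-off, -2.67 for Arrdc3, 0.92 for Arrdc4 and 0.67 for Mlxip. That of Mlx turned to 0.14. With a pseudocount of 0.1 the low gene Arrdc3 came to -4.01.

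In Met+LPS against LPS, Txnip was past the cut-offs as lower and Arrdc4 as higher. Of all genes tested, 8.28% were called, with 4.19% higher and 4.09% lower. The log2 fold change was -2.65 for Txnip, 1.14 for Arrdc4, 0.30 for Arrdc3, 0.14 for Mlx and -0.15 for Mlxip, with standard errors between 0.04 and 0.10. The median over all genes was -0.03, and rescaling left Txnip at -2.65 and Arrdc4 at 1.16. Txnip had the lowest fold change of the 12755 genes on this scale, and Arrdc4 the place 209 from the highest. The place of Txnip depends on how low genes are weighted. It was place 34 from the lowest with a pseudocount of 0.1 and place 12 with voom on recovered reads, and it lay within the lowest 3 when a library was left out.

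In Met+LPS against untreated cells, Txnip and Arrdc3 were past the cut-offs, both lower. Of all genes tested, 5.35% were called, with 3.18% higher and 2.16% lower. The log2 fold change was -4.80 for Txnip, again the lowest of the 12755 genes on this scale (place 18 with a pseudocount of 0.1 and place 6 with voom), -2.79 for Arrdc3, 1.60 for Arrdc4, -0.23 for Mlx and 0.00 for Mlxip. The median over all genes was -0.48. After rescaling, Txnip was at -4.27, Mlxip at 0.53, Mlx turned to 0.30 and Arrdc4, at 2.08, was past the cut-offs as well.

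**Figure D4:**
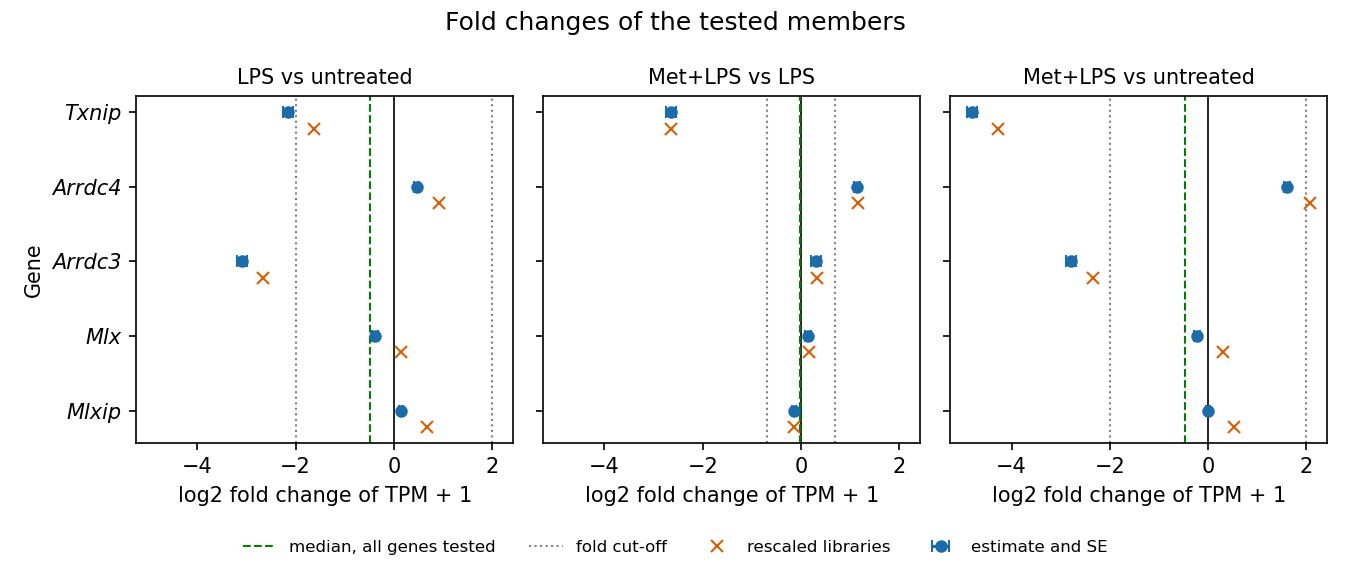
Log2 fold change of TPM + 1 of the 5 tested members in the 3 comparisons (points, with the standard error), with the fold cut-off (dotted), the median of all genes tested (dashed) and the value after rescaling of the libraries (crosses). Txnip lies at -2.15, -2.65 and -4.80 and Arrdc4 at 0.46, 1.14 and 1.60, on opposite sides of 0 in each comparison.

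The reads in genes, as recovered from the TPM values, numbered 25457015 to 30762753 in a library. The LPS response genes Tnf, Il1b and Cxcl10 were at 31.3, 3.465 and 8.637 TPM on average in untreated cells and at 3917, 3074 and 7136 TPM with LPS. All 8 macrophage markers were above 1 TPM in every library, and their summed level was 44620 to 46590 TPM in untreated cells, 37420 to 37900 with LPS and 30870 to 30950 in Met+LPS. Most of this sum was Lyz2, at 33980 and 35840, 26970 and 26700, and 21200 and 21380 TPM in the 3 groups. Cd14 (911.2 and 998.2 to 2639 and 2886 TPM) and Adgre1 (1510 and 1575 to 1750 and 1684 TPM) were higher with LPS than in untreated cells. Fcgr1 overlapped between these groups, and the other markers were lower in TPM with LPS. These TPM were not rescaled, and the median log2 fold change of all genes with LPS was -0.48. The median-ratio factors were 1.2871 and 1.2928 for the untreated libraries and 0.8982 and 0.8924 with LPS. A small fall of a marker in TPM therefore need not remain after rescaling. All markers of T and NK, B and erythroid cells were below 1 TPM in every library. The summed level of the 5 neutrophil markers was 27.21 to 30.9 TPM in untreated cells, 24.36 to 25.81 with LPS and 40.19 to 42.04 in Met+LPS, and its part in the results was not tested. Of the 2 mast cell markers, Kit was at 19.51 and 19.72 TPM in untreated cells, 7.916 and 7.996 with LPS and 24.18 and 22.94 in Met+LPS, and Cpa3 at 1.561 and 0.9202, 0.0866 and 0.1807, and 0.2616 and 0.2979 TPM. The summed level of the 5 stromal and endothelial markers was 0.7705 to 0.9188 TPM in untreated cells, 2.561 to 3.312 with LPS and 1.826 to 2.034 in Met+LPS, and that of the 3 dendritic markers 0.448 to 0.6445, 1.368 to 1.843 and 0.9505 to 1.674 TPM. The part of these markers in the results was not tested. In bulk RNA, fewer cells of a type and less RNA per cell cannot be told apart.

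Other genes share exon bases with some members on the opposite strand, and the strand setting of the authors' counting is not stated. The antisense gene of Txnip, Gm15441, had 0 to 5 reads in a library. Psmc3ip, which overlaps the end of Mlx, had 11 to 55 reads beside 621 to 903 of Mlx. Gm15747, antisense to Mlxip, had 0 to 2 reads. Arrdc4 overlaps no other gene.

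The pathway around the members was followed in 7 gene lists with 63 tested genes. Of these, 9 were called in LPS against untreated cells, 14 in Met+LPS against LPS and 8 in Met+LPS against untreated cells. The shares of all genes called, given above, are the background only for the counts below of genes past both cut-offs in limma. The lists were chosen with earlier results of these data known, so these shares are given for scale only. Counts by a p-value alone, at any size of change, or by voom cannot be set against these shares. The share of all genes that pass a p-value alone is not given here. Whether such a count is high for a list was not tested.

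Of 20 other known targets of the Mondo proteins, 12 passed the filter. The list does not separate targets of MondoA from those of ChREBP, whose gene Mlxipl had at most 1 read in a library. The 8 that did not include the liver genes Pklr and G6pc. In Met+LPS against LPS, 3 of the 12 were past both cut-offs as lower and 1 as higher. At any size, 8 were lower and 1 higher at an adjusted p-value under 0.01 in limma. The median log2 fold change was -0.34, beside -0.03 for all genes. Pfkfb3, which makes the activator of phosphofructokinase, fell by 1.90 (SE 0.06) and stood at 133.9 and 136.4 TPM with LPS and at 37.79 and 33.31 TPM in Met+LPS. Elovl6, a fatty-acid elongase, fell by 1.29 (SE 0.14), and Fasn, the fatty-acid synthase, fell by 0.94 (SE 0.04). Bhlhe40, a transcriptional repressor, rose by 1.63 (SE 0.07), from 23.73 and 22.34 TPM to 78.05 and 68.66 TPM. In LPS against untreated cells, 2 of the 12 were past the cut-offs, both higher, which were Pfkfb3 at 2.96 and the hexokinase gene Hk2 at 2.39. Going by limma's adjusted p-value of 0.01 alone, another 8 of the 12 were lower with LPS, Bhlhe40 the farthest at -1.09, where the median of all genes was -0.48. Of these 8, Acly, Scd1 and Ldha turned to 0.18, 0.04 and 0.2 after rescaling of the libraries. Bhlhe40 was then at -0.58, Fasn at -0.24, Klf10 at -0.2, Khk at -0.13 and Acaca at -0.12. Hk2 stood at 145.8 and 144.3 TPM with LPS and at 129.8 and 124.1 TPM in Met+LPS. Its log2 fold change of -0.19 (SE 0.04) missed the fold cut-off.

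The pair of E-box-like copies at Txnip was looked up in other genes. This pair of CACGNG copies lay in the windows of 15 genes, 9 of them tested. Of the 9, 4 were past the cut-offs in Met+LPS against LPS, Txnip as lower and Fem1b, Fnip1 and Irak1bp1 as higher. Txnip is in this count although it was picked from these values. In each comparison with untreated cells, 1 of the 9 was called higher, and the 1 called lower was Txnip. Of 10 tested genes with the consensus carbohydrate response element, 2 were called higher and 0 lower in Met+LPS against LPS. Fem1b, Fnip1 and Irak1bp1 are named after their values were seen. Fem1b encodes a receptor subunit of a ubiquitin ligase and Fnip1 a binding partner of folliculin. Fnip1 stood at 93.16 and 87.45 TPM in untreated cells, 28.18 and 29.18 TPM with LPS and 89.14 and 79.09 TPM in Met+LPS. Its log2 fold change against LPS was 1.52 (SE 0.06). Fem1b stood at 70.79 and 69.19, 45.07 and 41.42, and 113.0 and 98.7 TPM in the same order, a log2 fold change of 1.27 (SE 0.07). Irak1bp1 was at 0.77 (SE 0.15). The elements of the 4 genes are given on the strand that reads CACGNG, with both copies in capitals, to show how they differ in the free base and in the 5 bases between.
Txnip, chr3:96557872-96557888: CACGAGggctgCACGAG
Fnip1, chr11:54438023-54438039: CACGGGtccgtCACGCG
Fem1b, chr9:62811830-62811846: CACGCGcggctCACGGG
Irak1bp1, chr9:82829784-82829800: CACGGGccttcCACGTG

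Mlx also pairs with repressors of the Mxd family and with Mnt, which otherwise bind Max. Of 10 Mlx and Max partners, 9 passed the filter. Mnt fell by 4.28 (SE 0.12) with LPS, from 67.05 and 62.0 TPM to 1.987 and 2.813 TPM, and rose by 1.38 (SE 0.12) in Met+LPS against LPS, to 8.234 and 7.301 TPM. Mxd4 was at 37.5 and 38.78, 9.539 and 10.26, and 4.444 and 3.969 TPM in the 3 groups. It fell by 1.07 (SE 0.07) in Met+LPS against LPS and by 2.91 against untreated cells, so its order of groups was that of Txnip. Mxd1 was at 8.647 and 8.132, 30.74 and 34.8, and 18.76 and 17.13 TPM in the 3 groups. It rose by 1.84 (SE 0.08) with LPS, which missed the fold cut-off but came to 2.32 after rescaling of the libraries. Mxd1 then fell by 0.83 (SE 0.08) in Met+LPS against LPS. Myc, the growth-promoting partner of Max, rose by 1.40 (SE 0.06), from 12.43 and 12.41 to 35.98 and 32.73 TPM. In LPS against untreated cells, Mycl rose by 4.11, and Mnt was the only gene past the fold cut-off as lower. Without that cut-off, 8 of the 9 passed limma's adjusted p-value of 0.01, 3 higher and 5 lower, among the latter Mxd4 at -1.85 and Mxd3 at -1.32, the second of which voom called.

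The other arrestins and the ligases that alpha-arrestins recruit gave no call in limma in any comparison. Of 5 other arrestin-fold genes, 4 passed the filter. Of these 4, 2 had an unadjusted p-value under 0.05 in Met+LPS against LPS, and limma voom on recovered reads called 0. With LPS against untreated cells, all 4 had an unadjusted p-value under 0.05, and voom called Arrdc2. Arrdc2 stood at 4.313 and 3.498 TPM in untreated cells, 0.2845 and 0.3392 TPM with LPS and 0.3684 and 0.3496 TPM in Met+LPS, an order like that of Arrdc3. Of 8 NEDD4-type ubiquitin ligases, 6 passed the filter, and 4 had an unadjusted p-value under 0.05 with LPS and 2 in Met+LPS against LPS, with 0 called by voom. Itch, the ligase that ubiquitinates Txnip, had a log2 fold change of 0.06 (SE 0.07) in Met+LPS against LPS.

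All 12 genes of the thioredoxin system passed the filter. Between Met+LPS and LPS, 2 were past both cut-offs, both higher. At any size, 9 of the 12 passed limma's adjusted p-value of 0.01, 5 higher and 4 lower, and the lowest was Prdx2 at -0.58 (SE 0.05). Srxn1, which repairs overoxidised peroxiredoxins, rose by 1.19 (SE 0.07), from 169.9 and 151.5 to 355.6 and 379.5 TPM. Prdx1, a peroxiredoxin, rose by 0.83 (SE 0.06). Txn1, the thioredoxin that Txnip binds, was at 543.5 and 527.8 TPM in untreated cells, 723.7 and 734.4 TPM with LPS and 660.3 and 681.1 TPM in Met+LPS, with a log2 fold change of -0.12 (SE 0.03) in Met+LPS against LPS. No gene of this list was called in limma in LPS against untreated cells, where 10 of the 12 had an unadjusted p-value under 0.05 and voom called 0. Going by limma's adjusted p-value of 0.01 alone, 3 were higher and 7 lower with LPS. The highest was Txnrd1 at 1.38 (SE 0.04), or 1.90 after rescaling, and the lowest log2 fold change was -0.63.

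Of 15 genes of glucose uptake and phosphorylation, 10 passed the filter. Slc2a1, the glucose transporter that Txnip acts on, was at 30.72 and 29.46 TPM in untreated cells, 66.99 and 67.3 TPM with LPS and 85.69 and 87.56 TPM in Met+LPS. Its groups did not overlap and stood in the reverse order of those of Txnip. Its log2 fold changes of 1.13 (SE 0.04) with LPS and 0.36 (SE 0.04) in Met+LPS against LPS missed the fold cut-offs. Slc2a6, a transporter of the lysosomal membrane, rose by 3.16 with LPS and fell by 0.85 (SE 0.05) in Met+LPS against LPS. It was the only gene of this list called in the latter comparison.

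Txnip is also a known target of the FOXO factors. Of 12 other FOXO targets, 11 passed the filter. With LPS 4 of these were past both cut-offs, all lower, namely Sesn1 at -4.48, Trp53inp1 at -3.53, Klhl24 at -2.77 and Bcl6 at -2.15. After rescaling of the libraries Bcl6, at -1.63, was no longer past the fold cut-off, and the FOXO targets Ccng2 (2.10) and Cited2 (2.06) were past it as higher. At any size, 3 were higher and 6 lower at an adjusted p-value under 0.01 in limma, the highest being Ccng2 at 1.59 and Cited2 at 1.54. In Met+LPS against LPS 3 were past both cut-offs, all higher. At any size, 6 were higher and 2 lower at an adjusted p-value under 0.01, the lower ones being Cdkn1b at -0.53 and Ccng2 at -0.29. The list had a median log2 fold change of 0.58 beside -0.03 for all genes. Trp53inp1, a stress-induced regulator of autophagy, rose by 1.18 (SE 0.07), Klhl24 by 1.11 (SE 0.11) and Irs2, the insulin receptor substrate, by 0.76 (SE 0.14). Trp53inp1 stood at 32.21 and 30.89, 1.806 and 1.82, and 5.21 and 5.566 TPM in the 3 groups.

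**Figure D5:**
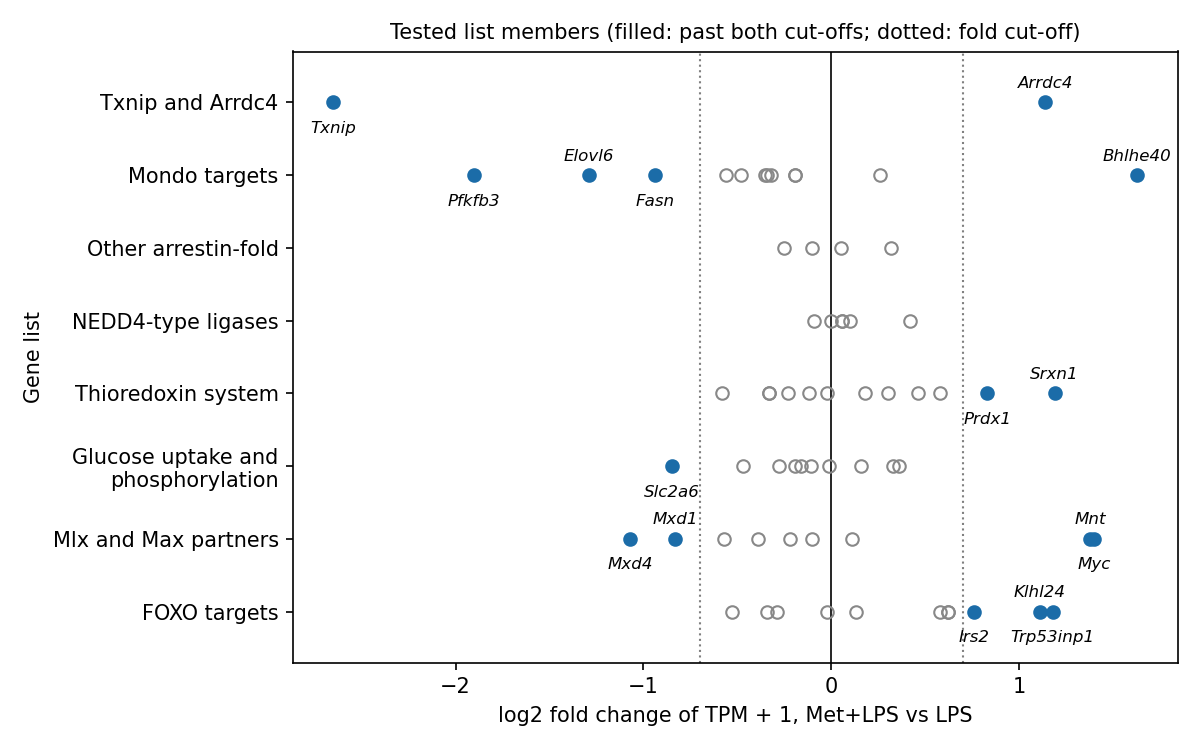
Log2 fold change of TPM + 1 in Met+LPS against LPS for Txnip, Arrdc4 and the tested members of the 7 lists, 1 line per list, with filled points past both cut-offs and dotted lines at 0.7 and -0.7. Txnip lies at -2.65 and the farthest list member on that side, Pfkfb3, at -1.90. Called FOXO targets and thioredoxin genes lie on the right, and called Mondo targets and Mlx and Max partners lie on both sides.

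The genes most like Txnip over the 6 libraries were sought among 9016 tested genes with a mean of at least 5 TPM, by the root mean square difference of mean-centred log2(TPM + 1). The nearest were Rab3il1 (0.589), Scd2 (0.687), Ighm (0.701), Rassf2 (0.767) and Lfng (0.789). The nearest to Arrdc4 were Sgk1 (0.0854), Procr (0.104), Ero1l (0.115), Slc43a3 (0.141) and Id2 (0.146). This difference grows with the size of a gene's change, so the values for Txnip and for Arrdc4 cannot be set against each other. Rab3il1 was at 167.4 and 168.2 TPM in untreated cells, 21.14 and 20.69 TPM with LPS and 8.881 and 7.387 TPM in Met+LPS. Ighm, the immunoglobulin mu chain gene, was at 53.28 and 57.8, 27.65 and 25.07, and 5.331 and 5.631 TPM, while the 3 B-cell markers together stayed at or below 0.5153 TPM in every library. Sgk1, a kinase of the insulin pathway, was at 58.1 and 63.72 TPM in untreated cells, 74.24 and 81.83 TPM with LPS and 177.3 and 167.2 TPM in Met+LPS. All of these are likenesses over 6 libraries in 3 groups and carry no test.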

How the data were processed

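RNA-seq of polyadenylated RNA from BMDMs was analysed, 2 libraries in each of 3 groups. The authors aligned reads to GRCm38 with STAR 2.6.1d and counted them with featureCounts (Subread 1.6.3), and they deposited TPM per gene. How counts became TPM is not given in the sources used here. The submitters' processing notes also name SAMtools 1.9. The table was fitted with limma 3.58.1 in R 4.3.3 (lmFit and eBayes with a trend, all 6 libraries, 3 residual degrees of freedom, no covariate) on log2(TPM + 1), with Benjamini-Hochberg adjustment over 12755 genes. P-values measure only the spread between these samples. The authors' counts were tested in the study with DESeq2, which was not used here. Reads were recovered from TPM and the exon length of GENCODE M21, which 54495 of 54532 genes matched. Of values under 200 reads, 97.8% to 98.1% came out whole within 0.05 reads. Intervals and floors cover counting error only. A voom fit on these reads was added after seeing the data. Tables were made in Python 3.11.15 with numpy 2.4.6 and pandas 2.3.3 and plots with matplotlib 3.10.9.

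The members and lists were chosen with earlier results of these data known. Named beyond the members are list genes called in Met+LPS against LPS (at most 4 a list, by size), genes named for their role (Txn1, Slc2a1, Mxd1, Mxd4, Mnt and Itch), the 5 genes most like Txnip and Arrdc4, and 3 LPS response genes. Others were named after their values were seen. All members matched RefSeq promoters of GRCm38.p6. Same-numbered libraries did not deviate together (correlations of -0.004, 0.028 and 0.006).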

Additional observations from a re-analysis of the deposited data

How the results depend on the processing

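No alternative turned the direction of Txnip, Arrdc4 or Arrdc3. Rescaling by the median ratio gave -1.62 and -4.27 for Txnip and 0.92 and 2.08 for Arrdc4 against untreated cells (LPS, then Met+LPS). It turned Mlx to 0.14 and 0.30 and gave 0.67 and 0.53 for Mlxip, and the share of calls that were higher went from 61.1% to 83.7% with LPS and from 59.5% to 85.4% with Met+LPS. A pseudocount of 0.1 gave 0.52, 1.22 and 1.74 for Arrdc4 in LPS against untreated, Met+LPS against LPS and Met+LPS against untreated cells, and voom on recovered reads gave 0.54, 1.22 and 1.76. The genes called in the comparisons with untreated cells, 776 and 682, became 1512 and 1457 with the pseudocount of 0.1 (46.1% and 41.8% higher) and 1596 and 1564 with voom (45.0% and 40.2% higher). A fold cut-off of 1 gave 3556, 455 and 3714 genes in place of 776, 1056 and 682, and 22, 9 and 27 list members in place of 9, 14 and 8. The change follows from the cut-off itself. The other causes were not tested.

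Without 1 library at a time, Txnip ranged from -2.17 to -2.12, from -2.81 to -2.49 and from -4.95 to -4.64 in the same 3 comparisons, and Arrdc4 from 0.44 to 0.48, 1.11 to 1.18 and 1.57 to 1.64. Calls ranged from 769 to 806, 925 to 994 and 676 to 696, and list members called from 9 to 10, 13 to 14 and 8 to 8. A lone library left in a group is assumed to vary like the other groups. Mlxip in Met+LPS against untreated cells, at 0.00, turned to -0.01 without Met+LPS replicate 2 and to -0.02 without untreated replicate 1, and lay at 0.02 without untreated replicate 2. With the replicate number as a block the calls were 777, 1044 and 682. The samples share only a number, since the labels give no pairing. Depth limits Mlxipl, with at most 1 read in a library.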
